A study of Mus musculus with 6 samples.

Results

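The genes described here are the transcriptional effectors of the Hippo pathway, the TEAD factors through which they bind DNA, and genes that they are known to switch on or that regulate them. They were chosen by name for their place in the pathway: Yap1, Wwtr1, Tead1, Tead3, Ccn1, Ccn2, Ankrd1, Amotl2, Lats2 and Ajuba. All 10 were found among the 55471 genes of the count table, and all 10 had enough counts to be among the 13044 tested. RNA sequencing measured them in a cultured mouse line of undifferentiated pleomorphic sarcoma, a soft-tissue tumour, labelled as metastatic and grown in medium with fetal bovine serum. The 3 control libraries carry the genotype label WT and the tag AAV2, and the 3 others the label Setd1a Knock Out and a numeric tag. The labels do not explain the tags, say whether the knockout is 1 clone or a pool, or say whether replicates were separate cultures. The tags divide the libraries as the genotype does and cannot be told apart from it, and each p-value measures only how these libraries spread, which may be technical.

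In the Hippo pathway, a chain of kinases ending in LATS1 and LATS2 phosphorylates the coactivators YAP (Yap1) and TAZ (Wwtr1) and keeps them in the cytoplasm. When the kinases are quiet, as in spread cells under mechanical tension, YAP and TAZ enter the nucleus and act through TEAD proteins on targets such as Ccn1, Ccn2 and Ankrd1. Much of this control acts on the proteins and their location, which RNA counts do not show, so target transcripts are commonly read as the output. YAP and TAZ activity is often high in sarcomas.

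TEAD proteins recognise the bases GGAATG, read as CATTCC on the other strand, and the promoters of the genes studied were searched for these letters on both strands. Windows from 250 bases before to 50 bases after the start site were taken from RefSeq on GRCm38.p6. Of the 10 genes, 8 had a window, and Ccn2 and Tead1 had none. Each of the 8 held at least 1 match in at least 1 of its windows, against 14.7% of all 32851 windows and 16.6% of all 27025 genes. Positions count from the start site, upstream ones being negative, and give the first base of the match on the gene's strand. The 250 upstream bases of 2 targets, a feedback component and Yap1 itself are shown because the matches lie in them; capitals mark the 6 matching letters.
Ccn1 (chr3:145649986-145650235, minus strand): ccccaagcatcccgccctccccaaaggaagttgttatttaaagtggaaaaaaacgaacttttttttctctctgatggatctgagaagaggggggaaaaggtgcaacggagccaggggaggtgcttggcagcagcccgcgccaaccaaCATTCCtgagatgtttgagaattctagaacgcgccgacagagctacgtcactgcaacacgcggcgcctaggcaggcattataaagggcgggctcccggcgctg
Ankrd1 (chr19:36119845-36120094, minus strand): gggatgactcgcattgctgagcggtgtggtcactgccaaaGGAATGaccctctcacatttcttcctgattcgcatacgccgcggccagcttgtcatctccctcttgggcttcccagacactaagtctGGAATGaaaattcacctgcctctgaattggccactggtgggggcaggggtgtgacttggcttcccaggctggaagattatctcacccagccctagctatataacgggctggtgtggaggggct
Amotl2 (chr9:102717554-102717803, plus strand): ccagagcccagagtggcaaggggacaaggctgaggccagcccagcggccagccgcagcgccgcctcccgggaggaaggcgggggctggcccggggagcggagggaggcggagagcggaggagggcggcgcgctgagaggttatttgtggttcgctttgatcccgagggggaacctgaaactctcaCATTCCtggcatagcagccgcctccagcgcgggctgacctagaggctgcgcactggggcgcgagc
Yap1 (chr9:8004597-8004846, minus strand): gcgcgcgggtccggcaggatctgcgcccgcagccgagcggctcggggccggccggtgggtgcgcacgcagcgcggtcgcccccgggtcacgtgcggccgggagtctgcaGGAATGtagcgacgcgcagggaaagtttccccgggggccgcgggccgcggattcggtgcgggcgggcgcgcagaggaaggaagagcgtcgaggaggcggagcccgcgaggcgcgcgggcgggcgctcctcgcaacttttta

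Ankrd1 held 2 matches, at -210 and -123, and Ccn1 and Amotl2 held 1 each, at -103 and -65, as CATTCC. The match in Yap1 lay at -141. Ajuba held 2 matches, at -186 and -164, and Wwtr1 held 1, at -136 from the first of its 2 start sites. Tead3 had a match in 2 of its 3 windows, and the match of Lats2 lay 5 bases into the transcript. Of 14 other YAP and TAZ targets with a window, 4 held a match: Axl, Crim1, Ptpn14 and Edn1. The AP-1 motif TGANTCA, whose proteins share many enhancers with TEADs, was in 0 of the 8 genes and in 7.81% of all windows. A match describes the letters alone, and binding was not measured. The start site used was also the GENCODE one for Yap1 and for the first site of Wwtr1, and those of the other 6 genes differed from it. For Ccn1 it was 145649985, against 145649981 in GENCODE. For Amotl2 it was 102717804, against 102716672, and for the first site of Lats2 57746123, against 57758388. The positions given depend on the start site used.

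Total counts per library lay between 17749533 and 18272622. Setd1a, which encodes a histone H3 lysine 4 methyltransferase, held 71.0, 75.3 and 73.5 CPM (counts scaled to library size) in control replicates 1, 2 and 3. It held 53.2, 68.7 and 56.3 CPM in the knockout replicates, so its transcript was present in every library and every knockout library lay below every control (log2 change -0.30 ± 0.12 SE, adjusted p = 0.426). The labels do not say which part of the gene was altered, so the transcript level is a limited check of the knockout. Of its exonic bases, 52.3% are shared with other annotated genes, so its level is uncertain as well. Mesenchymal markers such as Vim and Fn1 summed to between 9055 and 9463 CPM in the controls, against between 7736 and 9001 CPM in the knockouts. Of 11 epithelial, 10 endothelial and 10 leukocyte markers, 7 in each list stayed under 1 CPM in every library. The leukocyte markers Cd14 and Cd68 held 11.5 to 14.4 and 6.88 to 13.6 CPM, and the endothelial marker Egfl7 held 3.14 to 5.92 CPM. Of the keratin genes, Krt18 was detected at 39.4 to 76.0 CPM over the 6 libraries and Krt8 at 6.33 to 16.0 CPM. Krt5 and Krt14 each had only 1 count, in knockout replicate 1. Krt19 averaged 3.82 CPM in the controls, against 6.77 CPM in the knockouts, and was higher after knockout in all 3 pairs (adjusted p = 0.485, or 0.0327 with pairing). Its part in the other results was not tested.

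Of the 10 Hippo genes, 0 passed the comparison of knockout and control. The edgeR quasi-likelihood test without pairing called 0 of the 13044 genes at an adjusted p under 0.05 (0%), and at an unadjusted p under 0.05 it had 0 of the 10 against 10.0% of all genes. DESeq2 also called 0 of the 10, against 1.11% of the genes it tested. The paired edgeR test, which compares libraries of the same replicate number, called 0 of the 10 against 2.28% of all genes. For none of the 10 were the groups separated, against 15.3% of all genes tested. In each of the 10 the fitted change was smaller than the range of the 3 controls on the log2 scale. The share of all genes for which that holds was not computed, so it does not set the 10 apart. Fitted changes lay above 0 for 7 genes and below 0 for 3, with a median of 0.13; over all genes tested, 6543 lay above 0, 6501 below, and the median was 0.00. Without single libraries, the median of the 10 ran from -0.059 without knockout replicate 2 to 0.31 without control replicate 2, so its sign turned without 1 library. In the paired test it was 0.033, 0.14 and 0.21 without pairs 1, 2 and 3. In bulk RNA, fewer cells expressing a gene and less of its RNA per cell cannot be told apart. Unless stated, changes are log2 values of the test without pairing with Benjamini-Hochberg adjusted p-values.

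**Figure D1:**
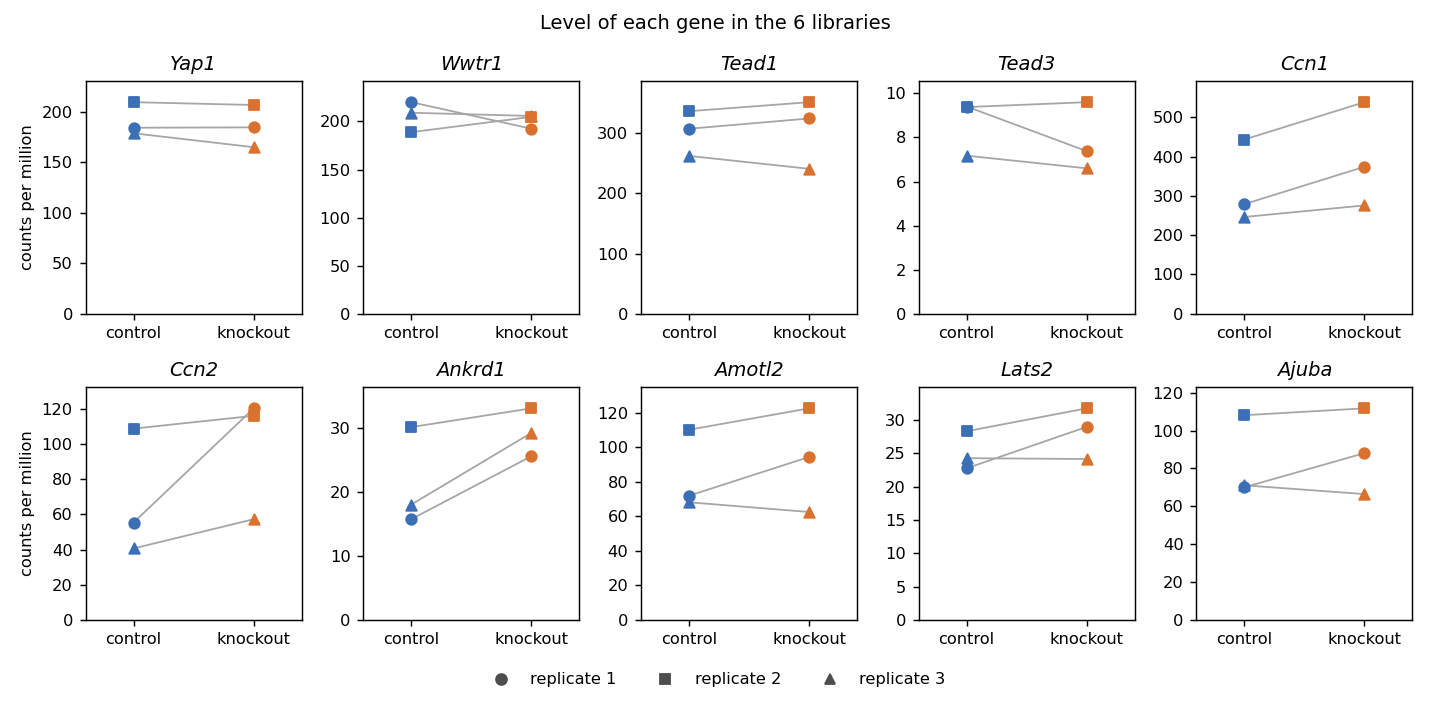
Level of each gene in CPM (vertical axis, from 0) in the 3 control and 3 knockout libraries; grey lines join libraries with the same replicate number. No gene separates the groups, while Ccn1, Ccn2 and Ankrd1 are higher in the knockout along all 3 lines, as are 19.9% of all genes tested.

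The 2 coactivators had like levels in both groups. Yap1 (ENSMUSG00000053110, chromosome 9, 7931999 to 8004596, minus strand of GRCm38) held 184, 209 and 179 CPM in control replicates 1 to 3 and 185, 207 and 165 CPM in the knockouts. The groups overlapped, and replicate 2 was the highest library of each. The change was -0.04 ± 0.12 (SE, adjusted p = 0.968), and its 95% interval ran from 0.811-fold to 1.16-fold. Wwtr1 (chromosome 3, 57455649 to 57575910, minus strand), which encodes TAZ, held 220, 189 and 209 CPM in the controls, against 193, 205 and 206 CPM in the knockouts. Here the highest and the lowest library were both controls, and replicate 2 was not the highest library of either group. The change was -0.04 ± 0.10 (SE, adjusted p = 0.969), with an interval from 0.834-fold to 1.14-fold. For both coactivators the interval excluded a change of 1.5-fold in either direction.

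Of the DNA-binding partners, Tead1 was the more abundant and Tead3 the least abundant of all 10 genes. Tead1 (chromosome 7, 112679318 to 112906807, plus strand) held 308, 337 and 262 CPM in the controls, against 325, 352 and 241 CPM in the knockouts. Replicate 2 was highest and replicate 3 lowest in both groups. The change was 0.02 ± 0.15 (SE, adjusted p = 0.991), with an interval from 0.799-fold to 1.28-fold. Tead3 (chromosome 17, 28331671 to 28350817, minus strand) held 9.41, 9.38 and 7.17 CPM in the controls, against 7.38, 9.60 and 6.60 CPM in the knockouts. With only 120 to 173 counts per library its interval was wider, from 0.672-fold to 1.23-fold, around a change of -0.14 ± 0.20 (SE, adjusted p = 0.924).

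**Figure D2:**
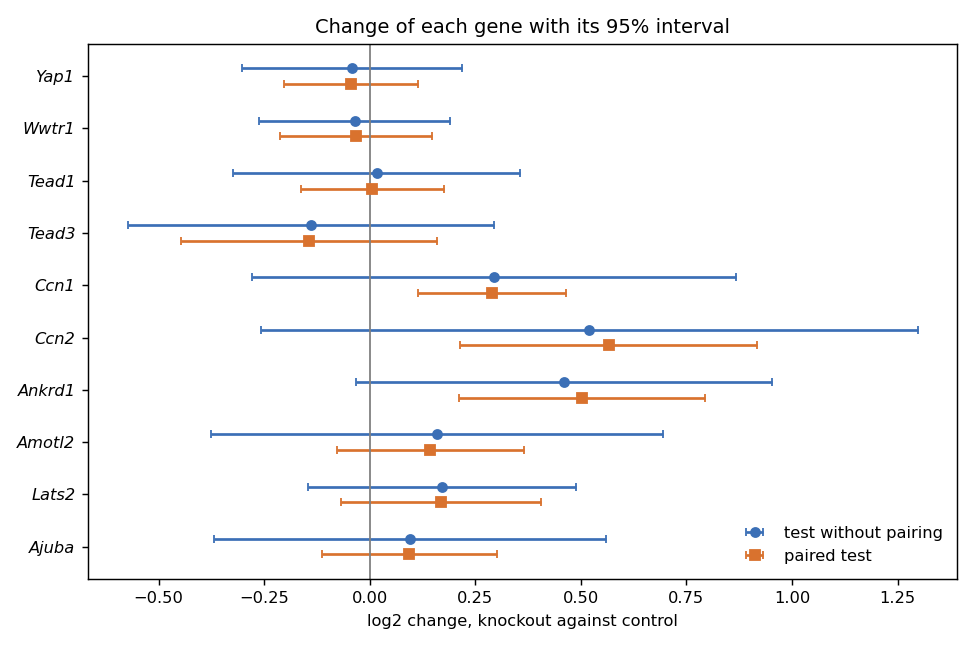
Log2 change of each gene, knockout against control (horizontal axis), with 95% intervals from the test without pairing (circles) and the paired test (squares). All 10 intervals without pairing include 0; in the paired test those of Ccn1, Ccn2 and Ankrd1 lie above 0, with adjusted p-values between 0.0731 and 0.0881.

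The 3 classical targets were higher in the knockout within every numbered pair, as were 19.9% of all genes tested. Their fitted changes did not pass either test. Ccn1 (ENSMUSG00000028195, chromosome 3, 145646976 to 145649981, minus strand), formerly Cyr61, encodes a secreted matricellular protein that binds integrins. It held 279, 443 and 246 CPM in control replicates 1 to 3 and 374, 538 and 276 CPM in the knockouts. Each knockout library exceeded the control of its number, yet control replicate 2 lay above 2 of the 3 knockouts. The means were 323 ± 106 and 396 ± 133 CPM (SD, n = 3), with an exact two-sided permutation p of 0.6. The fitted change was 0.30 ± 0.26 (SE, adjusted p = 0.811), with an interval from 0.825-fold to 1.83-fold.

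Ccn2 (ENSMUSG00000019997, chromosome 10, 24595442 to 24598683, plus strand), formerly Ctgf, encodes connective tissue growth factor, a relative of Ccn1 linked to fibrosis. It held 55.4, 109 and 40.6 CPM in the controls, against 120, 116 and 57.3 CPM in the knockouts. Knockout replicates 1 and 2 were the highest libraries of the 6, and knockout replicate 3 lay among the controls. The means were 68.3 ± 35.9 and 98.0 ± 35.3 CPM (SD, n = 3), with an exact two-sided permutation p of 0.2. The fitted change was 0.52 ± 0.35 (SE, adjusted p = 0.711), with an interval from 0.837-fold to 2.46-fold. Of its exonic bases, 23.2% are shared with the antisense gene Gm15270, which held 23 counts in all libraries together.

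Ankrd1 (ENSMUSG00000024803, chromosome 19, 36111961 to 36120099, minus strand) encodes an ankyrin repeat protein known from strained heart muscle and widely used as a YAP target. It held 15.7, 30.1 and 18.0 CPM in the controls, against 25.6, 33.0 and 29.2 CPM in the knockouts. All 3 knockouts lay above control replicates 1 and 3, and control replicate 2 lay within the knockout range. The means were 21.3 ± 7.73 and 29.3 ± 3.74 CPM (SD, n = 3), with an exact two-sided permutation p of 0.3; with 3 libraries a group it cannot go below 0.1. The fitted change was 0.46 ± 0.22 (SE, adjusted p = 0.527), with an interval from 0.977-fold to 1.94-fold. Since Ankrd1 is also a striated muscle gene, 10 muscle markers were summed: they held 7.36 to 8.24 CPM in the controls, against 13.3 to 16.8 CPM in the knockouts. Most of that sum came from the natriuretic peptide gene Nppb, at 6.11 ± 0.597 CPM in the controls and 11.1 ± 2.53 CPM after knockout (SD, n = 3; adjusted p = 0.194, or 0.0289 with pairing and 0.0237 by DESeq2). Tnnt2, a troponin gene, stood at 1.15 ± 0.175 and 2.37 ± 0.832 CPM (SD, n = 3; adjusted p = 0.324, or 0.0656 with pairing). For both, every knockout lay above every control, while Myod1, Myog and Actc1 had 0 counts in every library. The part of the muscle markers in the Ankrd1 difference was not tested.

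Within pairs 1, 2 and 3, the log2 ratio of knockout to control was 0.42, 0.28 and 0.16 for Ccn1. For Ccn2 it was 1.12, 0.09 and 0.49, and for Ankrd1 it was 0.70, 0.13 and 0.70. These 3 were the only ones of the 10 that were higher in all 3 pairs, against 19.9% of all genes tested, and 0 of the 10 were lower in all 3 pairs, against 21.6%. In the paired test their changes were 0.29 ± 0.08, 0.57 ± 0.16 and 0.50 ± 0.13 (SE), with adjusted p-values of 0.0854, 0.0881 and 0.0731, so none passed. Before adjustment, 3 of the 10 were higher with p under 0.05 in that test, against 9.94% of all genes. Those shares rest on only 10 genes that were picked for their known link to the pathway. Pair 2 had the smallest ratio of the 3 for both Ccn2 and Ankrd1, so leaving it out was bound to raise their changes. Without it, the paired test called Ccn2 (log2 change 0.83, adjusted p = 0.00252) and Ankrd1 (0.72, adjusted p = 0.0287). That fit, on fewer libraries, called 194 of the 13155 genes tested. The paired test called 0 of the 10 without pair 1 or without pair 3. Without pairing, leaving out 1 library put the change of Ccn1 between 0.017 (without knockout replicate 2) and 0.60 (without control replicate 2). That of Ccn2 lay between 0.25 (without control replicate 3) and 1.03 (without control replicate 2). That of Ankrd1 lay between 0.28 (without control replicate 1) and 0.80 (without control replicate 2).

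The remaining 3 genes act within the pathway, 2 of them as targets that restrain it. Amotl2 (chromosome 9, 102716672 to 102733418, plus strand) encodes an angiomotin that holds YAP at junctions and is itself induced by YAP. It held 72.0, 110 and 68.2 CPM in the controls, against 94.5, 123 and 62.6 CPM in the knockouts, a change of 0.16 ± 0.24 (SE, adjusted p = 0.928). Lats2 (chromosome 14, 57689662 to 57758388, minus strand), the inhibitory kinase that YAP also induces, held 22.7, 28.3 and 24.3 CPM in the controls, against 29.0, 31.7 and 24.1 CPM in the knockouts. Its change was 0.17 ± 0.14 (SE, adjusted p = 0.793). Of its exonic bases, 42.4% are shared with Gm49361 on the same strand, which had 0 counts; how reads in such bases were counted is not stated in the labels. Ajuba (chromosome 14, 54567472 to 54577558, minus strand) encodes a LIM protein that binds and restrains LATS kinases. It held 70.0, 108 and 71.1 CPM in the controls, against 88.1, 112 and 66.4 CPM in the knockouts, a change of 0.10 ± 0.21 (SE, adjusted p = 0.955). For all 3 the knockout was above its control in pairs 1 and 2 and below it in pair 3, and the groups overlapped.

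Replicate 2 tended to be the highest library in both groups. It was the highest of the 3 controls for 8 of the 10 genes and the highest of the 3 knockouts for 8. For 7 of them, Yap1, Tead1, Ccn1, Ankrd1, Amotl2, Lats2 and Ajuba, it was highest in both groups, against 19.7% of all genes tested. Among lists described below, this held for 9 of 17 other signature targets, 9 of 13 upstream and junction genes and 2 of 17 kinases and adaptors, so it was not particular to the 10. The highest control was 2.68 times the lowest for Ccn2, 1.92 times for Ankrd1 and 1.80 times for Ccn1, against 1.17 times for both Yap1 and Wwtr1. This pattern was noticed in the data and was not tested, and what a replicate number stands for is not given in the sources used here.

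**Figure D3:**
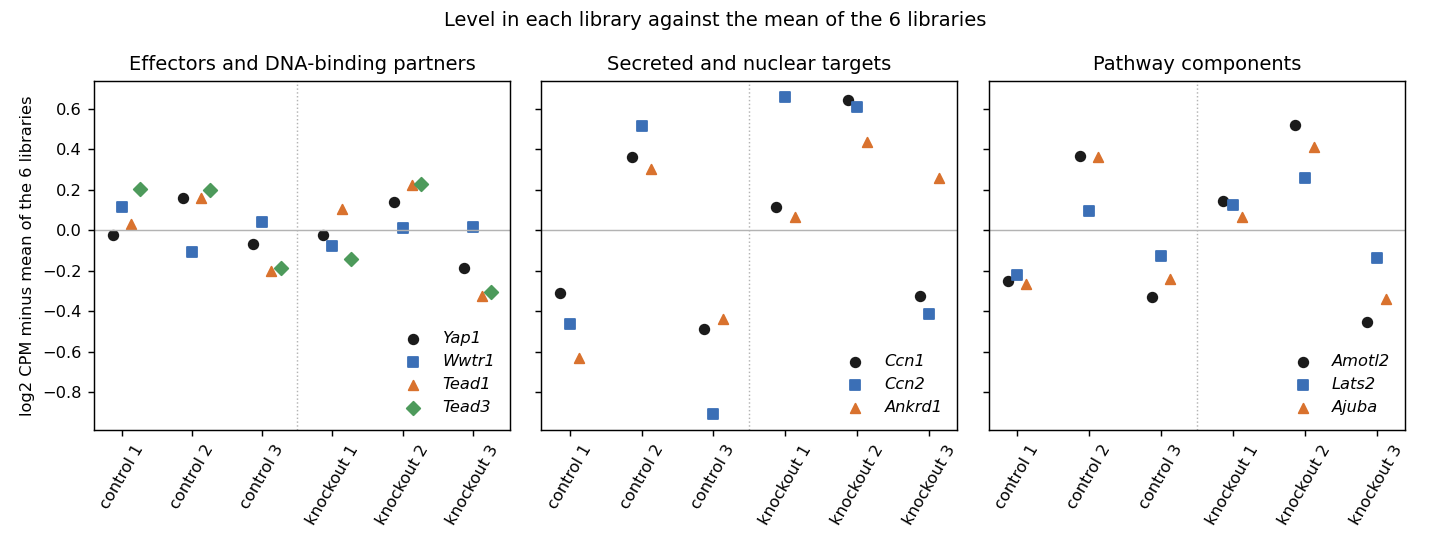
Log2 CPM of each gene minus its mean over the 6 libraries (vertical axis), by library. Control replicate 2 lies above 0 for 9 of the 10 genes and knockout replicate 2 for all 10, and Ccn1, Ccn2 and Ankrd1 spread more widely than Yap1 and Wwtr1.

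Scaled to exon length, Ccn1 was by far the most abundant of the 10 and Tead3 the least. Ccn1 averaged 178 CPM per kilobase of exon over the 6 libraries and its lowest library lay above every library of the other genes. Wwtr1 followed at 42.6 and Ccn2 at 29.1, then Ajuba at 23.6, Tead1 at 22.4 and Yap1 at 20.3. Amotl2 stood at 14.1, Ankrd1 at 8.75, Lats2 at 3.83 and Tead3 at 1.23 CPM per kilobase. Libraries of neighbouring genes overlapped in this order from Wwtr1 down to Ankrd1, while Lats2 and Tead3 stood apart from the genes above them. On this scale Wwtr1 exceeded Yap1 in every library. Exon length here is the union of all annotated exons, which understates genes whose long isoforms are not used.

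**Figure D4:**
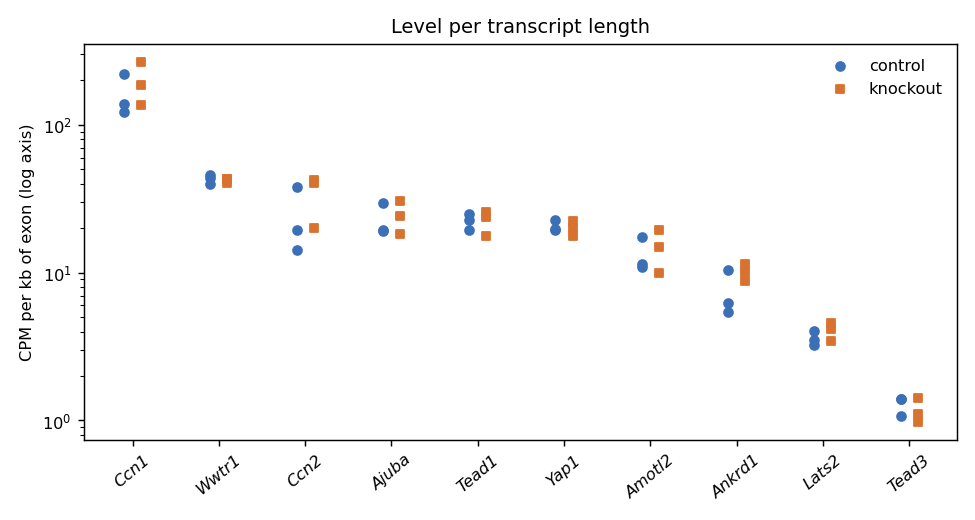
CPM per kilobase of exon (vertical log axis) for each gene in the 3 control (circles) and 3 knockout (squares) libraries, ordered by the mean of the 6. Ccn1 stands above the rest at 178 on average, and Tead3 lowest at 1.23.

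The other YAP and TAZ targets lay on both sides of 0. Of the 17 further genes of a commonly used target signature, 0 passed the test, 10 lay above 0 and 7 below, and the median change was 0.02. Changes in that list ran from -0.77 ± 0.31 for the forkhead factor gene Foxf2 to 0.64 ± 0.30 for Tgfb2, which encodes a TGF-beta ligand (SE, adjusted p = 0.450 and 0.519). Both were lowly expressed, and for Foxf2 alone every knockout lay below every control. Foxf2 stood at 1.23 ± 0.192 and 0.717 ± 0.145 CPM, and Tgfb2 at 1.84 ± 0.718 and 2.87 ± 0.430 CPM in control and knockout (SD, n = 3). F3, which encodes tissue factor, held 28.7, 29.4 and 17.7 CPM in the controls, against 28.9, 37.8 and 24.1 CPM in the knockouts (adjusted p = 0.790). Without pair 1, the paired test called F3 (log2 change 0.40, adjusted p = 0.0440). Pair 1 had the smallest ratio of F3 (log2 0.0097), and that fit called 714 of the 13098 genes tested.

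Among 4 more targets often used as readouts, 0 passed, 2 lay above 0 and 2 below, and the median change was 0.18. The growth factor gene Areg and the endothelin gene Edn1 had changes of -0.44 ± 0.24 and 0.42 ± 0.37 (SE, adjusted p = 0.616 and 0.819). Edn1 was lowly expressed, at 0.631 ± 0.196 and 0.847 ± 0.235 CPM in control and knockout (SD, n = 3). Thbs1, which encodes the matricellular protein thrombospondin 1, held 200, 382 and 139 CPM in the controls, against 376, 456 and 151 CPM in the knockouts. Replicate 2 was the highest library of each group, as for Ccn1, and each knockout exceeded the control of its number. The change was 0.45 ± 0.41 (SE, adjusted p = 0.825, or 0.118 with pairing).

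Of 6 other TEAD and Vestigial-like cofactor genes, 4 could be tested and 0 passed, 1 lying above 0 and 3 below, with a median change of -0.04. Tead2 held 58.0, 64.5 and 71.3 CPM in the controls, against 38.0, 54.1 and 56.0 CPM in the knockouts, all below the controls. Its change was -0.39 ± 0.15 (SE, adjusted p = 0.441, or 0.0590 with pairing). Vgll3, a TEAD cofactor, held 11.5, 20.8 and 6.28 CPM in the controls, against 23.8, 24.2 and 9.35 CPM in the knockouts; replicate 3 was the lowest of each group. Its change was 0.58 ± 0.42 (SE, adjusted p = 0.747), and without pair 2 the paired test called it (log2 change 0.85, adjusted p = 0.0251). Pair 2 had the smallest ratio of Vgll3 (log2 0.22), and that fit called 194 of the 13155 genes tested. Vgll4, which competes with YAP for TEADs, had a change of -0.05 ± 0.13 (SE, adjusted p = 0.961). Vgll1 and Vgll2 held 1 and 3 counts in all libraries together.

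The Hippo kinases and their adaptors also lay on both sides of 0. Of 18 listed, 17 were tested and 0 passed, with 10 above 0, 7 below and a median change of 0.05. In the paired test 0 of the 17 passed, and 5 were higher with an unadjusted p under 0.05, against 9.94% of all genes. Of the 17, 7 were higher in all 3 pairs, against 19.9% of all genes, and 2 lower in all 3, against 21.6%. In 3 of them every knockout lay above every control, as for 7.49% of all genes tested: the LATS activator gene Mob1a at 170 ± 9.54 and 200 ± 9.61 CPM, the kinase gene Taok3 at 35.2 ± 2.54 and 41.5 ± 3.56 CPM, and Map4k2 at 5.70 ± 0.434 and 7.04 ± 0.193 CPM in control and knockout (SD, n = 3). Their changes were 0.23 ± 0.10, 0.24 ± 0.12 and 0.30 ± 0.17 (SE, adjusted p = 0.470, 0.535 and 0.592). Of 5 subunits of STRIPAK, a phosphatase complex that switches off the Hippo kinases, 0 passed, 3 lay above 0 and 2 below, and the median was 0.05. Strn and Strn3, which encode striatin scaffolds, and Sike1 had changes of 0.16 ± 0.11, 0.11 ± 0.13 and -0.10 ± 0.14 (SE, adjusted p = 0.719, 0.897 and 0.925).

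Of 13 upstream regulators and junction proteins, 0 passed without pairing, 5 lay above 0 and 8 below, with a median change of -0.03. Wtip, a LIM protein of the same family as Ajuba, held 4.04, 4.97 and 3.81 CPM in the controls, against 6.72, 8.83 and 6.38 CPM in the knockouts. Every knockout lay above every control, and the change was 0.77 ± 0.20 (SE, adjusted p = 0.244). It passed in the paired test (0.77 ± 0.15 (SE), adjusted p = 0.0342), where 1.43% of all genes were called higher, also without pair 1 but not without pair 2 or pair 3, and not in DESeq2 (adjusted p = 0.10). Amot, the founding angiomotin gene, and the cadherin gene Dchs1 had changes of -0.23 ± 0.13 and 0.47 ± 0.34 (SE, adjusted p = 0.631 and 0.747). Without pair 1, the paired test called Dchs1 (log2 change 0.94, adjusted p = 0.0291). Pair 1 had the smallest ratio of Dchs1 (log2 -0.16), and that fit called 714 of the 13098 genes tested.

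**Figure D5:**
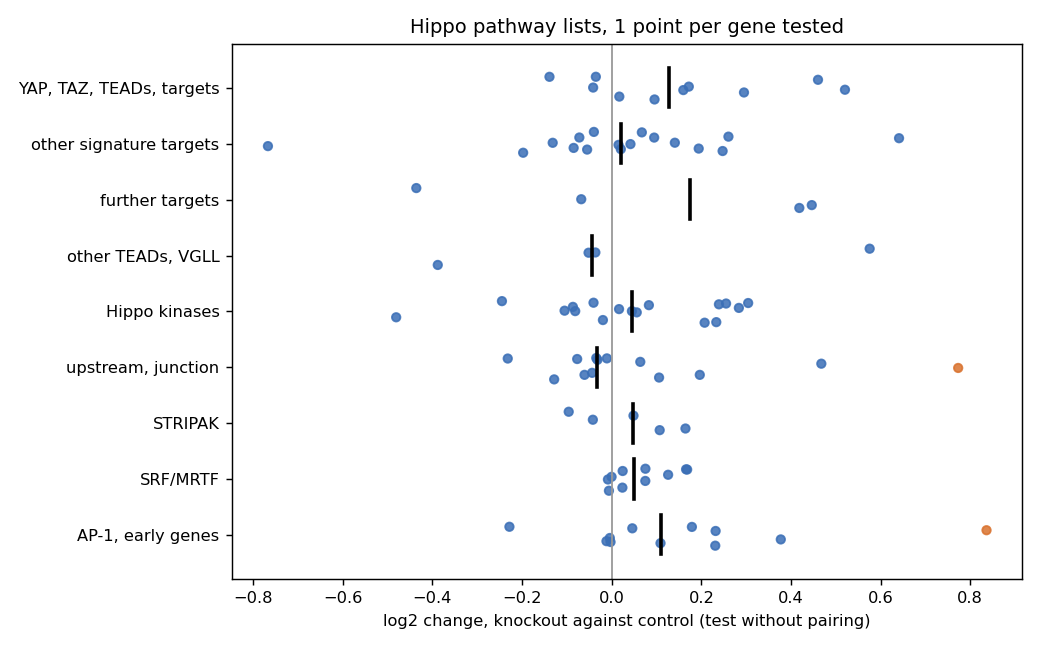
Log2 change of each tested gene (horizontal axis, test without pairing) by list; black bars are medians, and orange points passed the paired test. The orange points are Wtip and Atf3, and none of the 10 Hippo genes is among them.

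The genes most like Ccn1 and Ccn2 across the 6 libraries were Lpp, Wwc2 and Tmppe. Likeness was Pearson's r with the mean of the standardised log2 CPM of Ccn1 and Ccn2, over 9591 named genes with a mean of at least 5 CPM, and was 0.996, 0.994 and 0.993. Lpp, a LIM protein of focal adhesions, held 58.2, 97.1 and 46.3 CPM in the controls, against 87.4, 116 and 58.5 CPM in the knockouts (adjusted p = 0.756, or 0.0509 with pairing). Wwc2, a relative of the Hippo activator KIBRA, held 95.2, 127 and 90.1 CPM in the controls, against 127, 135 and 96.7 CPM in the knockouts (adjusted p = 0.788). Among the other 8 genes, r was 0.951 for Amotl2, 0.934 for Ajuba, 0.932 for Lats2, 0.848 for Tead1, 0.785 for Yap1, 0.746 for Ankrd1, 0.541 for Tead3 and -0.66 for Wwtr1. In this order, their ranks among the 9591 genes were 79, 139, 143, 571, 980, 1245, 2500 and 7890. With 6 libraries that share replicate numbers, and genes picked for a high value, these coefficients describe the libraries and carry no test.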

How the data were processed

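The authors deposited the raw count of reads for each Ensembl gene in 6 libraries as 1 table. The submitters' processing notes name STAR, featureCounts, DESeq and mm10, with no versions. The annotation release, strand setting and treatment of multiply mapped reads are not stated in the labels, so reads of overlapping or antisense genes and of paralogs such as the TEADs may be shared or lost. Symbols came from GENCODE M21 (GRCm38), which matched 55230 of 55471 identifiers. Genes were tested with edgeR 4.0.16 under R 4.3.3 (normalisation by TMM, its low-count filter by group, two-sided quasi-likelihood test, Benjamini-Hochberg adjustment over all genes tested, threshold 0.05); alternatives were DESeq2 1.42.0, RLE scaling, no filter, a minimum mean of 5 CPM, the replicate block, and leaving out each library or pair. CPM use the TMM-adjusted library sizes, logged CPM a prior count of 2, and intervals are 95%. At 1 CPM a library has about 18 reads.

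Replicate numbers were checked as pairs: deviations from group means correlated at 0.15, 0.46 and 0.38 within the 3 numbers, and at -0.45 to 0.05 across them. All 3 lay above 0.1, so the paired test is given where it changes a call and for the targets; the pairing comes from the data alone. No 2 libraries of a group agreed within sampling noise (chi-square per degree of freedom of at least 21.6 over genes with at least 60 counts). The steps were tested on simulated counts without replicate effects, whose spread depended on expression level alone. Recovery may thus be lower for genes that spread more, such as Ccn1 and Ccn2. In the simulated counts the test without pairing recovered 45.6% of 79 genes given a log2 change of 0.6. It recovered 78.9% of 57 genes at 1 and 98.4% of 62 genes at 2, with 1 false call. Genes, lists and tests were chosen with earlier results of these data known. The genes named were the 10 Hippo genes, the 3 of each other list with the smallest raw p, and the 3 most like Ccn1 and Ccn2. Some genes of these lists are not reported here.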

Additional observations from a re-analysis of the deposited data

How the results depend on the processing

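With 3 libraries a group, the intervals without pairing reached 1.83-fold for Ccn1, 2.46-fold for Ccn2 and 1.94-fold for Ankrd1. Increases up to those sizes were therefore not excluded by that test. The test without pairing called 0 genes. DESeq2 called 133, no low-count filter 74, the replicate block 298, and the block 714 without replicate 1, 194 without replicate 2 and 0 without replicate 3; leaving out single libraries gave 0 to 31. Scaling by RLE and a minimum mean of 5 CPM also called 0. Of the 10 Hippo genes, 2 were called with the block without replicate 2 and 0 under each other alternative; none reversed under DESeq2, RLE scaling, either filter or the full block. Among named genes of the other lists, the full block changed the calls of Wtip and Atf3, and among the markers those of Nppb and Krt19; it changed no other call of a named gene.

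Without replicate 1, the paired test called 1 of the signature targets, 2 upstream genes and 2 AP-1 genes; without replicate 2, 1 of the other TEADs and cofactors. DESeq2 and the full block each called 1 AP-1 gene, and the block 1 upstream gene. The median of the further targets was -0.060 with a minimum of 5 CPM, which leaves fewer of them, and 0.023 in the paired test without replicate 1. The signature median was then -0.068, and the kinase median 0.0090 without replicate 3. In the paired test without replicate 1, Wwtr1 changed by 0.047, Tead1 by -0.029, Ajuba by -0.023 and Sike1 by 0.0045; without replicate 2, Tead1 by -0.0066; without replicate 3, Vgll4 by 0.056. The causes were not tested.

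Without single libraries, unpaired changes ran from -0.12 to 0.038 for Yap1, -0.086 to 0.013 for Wwtr1, -0.087 to 0.16 for Tead1, -0.080 to 0.42 for Amotl2, -0.10 to 0.34 for Ajuba, -0.16 to 0.032 for Vgll4, -0.016 to 0.19 for Strn3 and -0.30 to 0.42 for Myl9. They ran from 0.017 to 0.60 for Ccn1, 0.25 to 1.03 for Ccn2, 0.28 to 0.80 for Ankrd1, 0.090 to 0.27 for Lats2 and -0.30 to -0.028 for Tead3. Medians ran from -0.059 to 0.31 for the 10 Hippo genes, -0.0015 to 0.25 for AP-1 genes, -0.11 to 0.0065 for the other TEADs and cofactors, -0.089 to 0.036 for signature targets, 0.038 to 0.32 for further targets, -0.018 to 0.098 for STRIPAK subunits, 0.00037 to 0.11 for kinases, -0.061 to 0.17 for upstream genes and -0.10 to 0.28 for SRF genes.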

Other observations

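Ccn1, Ccn2 and Ankrd1 are also targets of serum response factor (SRF) with its MRTF cofactors, and TEADs share enhancers with AP-1, so both gene lists were read in the same fit. Of 12 SRF and MRTF genes, 10 were tested and 0 passed, with 7 above 0, 3 below and a median log2 change of 0.05. Mrtfb, an actin-regulated SRF cofactor, changed by 0.17 ± 0.15, the LIM cofactor gene Fhl2 by 0.17 ± 0.18 and the myosin light chain gene Myl9 by 0.13 ± 0.45 (SE, adjusted p = 0.825, 0.861 and 0.974). Srf and the focal adhesion gene Vcl, named after their values were seen, were among 5 of the 10 that were highest in replicate 2 of both groups, against 19.7% of all genes tested. Srf held 119, 191 and 109 CPM in the controls, against 132, 201 and 93.5 CPM in the knockouts, and Vcl 232, 425 and 216 CPM against 280, 436 and 203 CPM.

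Of 11 AP-1 and immediate early genes, 0 passed without pairing, 7 lay above 0 and 4 below, and the median was 0.11. Atf3, a stress-induced transcription factor gene, held 7.75, 6.92 and 9.47 CPM in the controls, against 10.8, 16.6 and 15.7 CPM in the knockouts, with no overlap between groups. Its change was 0.84 ± 0.20 (SE, adjusted p = 0.206), and it passed in the paired test (adjusted p = 0.0344; 0.126 and 0.0852 without pairs 2 and 3) and in DESeq2 (adjusted p = 0.0236). Ier3 and Junb changed by 0.38 ± 0.18 and 0.23 ± 0.12 (SE, adjusted p = 0.527 and 0.571), and without pair 1 the paired test also called Ier3 (adjusted p = 0.00540). Pair 1 had the smallest ratio of Ier3 (log2 0.20), and that fit called 714 of the 13098 genes tested.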
